A study of Mus musculus with 12 samples.

Results

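The MS4A proteins are small proteins that cross the cell membrane several times, with both ends inside the cell, and their genes lie side by side on mouse chromosome 19. Members were read here in monocytes of the bone marrow (BMDM) and in microglia of the brainstem (BSM). The rule took every Aroma row whose gene symbol, or its older alias, was Ms4a1, Ms4a2, Ms4a3, Ms4a4b, Ms4a4c, Ms4a6b, Ms4a6c, Ms4a6d, Ms4a7 or Ms4a8a. These are 10 of the 21 genes named Ms4a in RefSeq, in a table with rows for 18430 genes. Of the 10, 8 had an Aroma row of their own. Ms4a3 had a row only in the Expression Console table. Ms4a4c had no row of its own in either table and was read only through a row named jointly for Ms4a4c and Ms4a4d.

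Both cell types came from C57BL/6 mice aged 6 weeks, with no transgene and no treatment in the labels. BMDM were sorted as CD11b+ CD45high CD115+ Ly6G- cells of the bone marrow and BSM as CD11b+ CD45low CD115low Ly6G- cells of the brainstem. Each of the 6 Affymetrix exon arrays, 3 per cell type, held amplified RNA of one pool of animals. Replicate 1 of each cell type is labelled female and replicates 2 and 3 male, and the labels were followed here. The study's main text describes male mice only, but its supplement also lists both replicate 1 pools as female. The Aroma values are linear intensities, given here on the log2 scale, where a difference of 1 is a 2-fold change. Neither table marks which genes were detected, and values of dim rows hold background. In bulk RNA of sorted pools, fewer cells that express a gene and less RNA per cell cannot be told apart.

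Several MS4A proteins sit beside receptors and change how these signal. Ms4a1 encodes CD20, the B cell surface protein to which therapeutic antibodies are directed, and Ms4a2 encodes the beta chain of the high-affinity IgE receptor of mast cells and basophils. Ms4a3 is a gene of granulocyte and monocyte progenitors whose human product binds the phosphatase encoded by CDKN3. Ms4a4b was described in T cells. Ms4a6b, Ms4a6c and Ms4a6d are the mouse genes most like human MS4A6A, one of the genes at a locus linked to Alzheimer disease. Ms4a7 is expressed by macrophages, among them those at the borders of the brain, and Ms4a8a has been described in macrophages of tumours.

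The family is known to have grown by local duplication, and the bases before the start were alike in 2 pairs of genes. RefSeq promoter sequences (assembly GRCm38.p6) matched 8 of the 10 members. Ms4a1 and Ms4a6d had no entry. All 170 pairs of the 19 promoter entries of different Ms4a genes were aligned over the 250 bases before the start. Ms4a6c with Ms4a6b gave the highest score, 208, and Ms4a4c with Ms4a4b the next, 184, while the next pair, Ms4a10 with Ms4a4b, scored 30. The 4 sequences are shown because these pairs are compared below. Each is on the plus strand, 5′ to 3′ and ending at the base before the start, and capitals mark the stretch that aligned with the other gene of the pair. They lie at chr19:11469118-11469367 (Ms4a6c), chr19:11518309-11518558 (Ms4a6b), chr19:11407411-11407660 (Ms4a4c) and chr19:11443308-11443557 (Ms4a4b).
Ms4a6c: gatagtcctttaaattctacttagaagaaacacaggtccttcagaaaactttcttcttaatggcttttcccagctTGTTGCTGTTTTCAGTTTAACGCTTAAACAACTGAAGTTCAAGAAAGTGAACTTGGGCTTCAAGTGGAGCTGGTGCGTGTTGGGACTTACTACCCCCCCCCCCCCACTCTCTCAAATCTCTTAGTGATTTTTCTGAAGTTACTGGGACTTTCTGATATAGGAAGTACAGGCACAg
Ms4a6b: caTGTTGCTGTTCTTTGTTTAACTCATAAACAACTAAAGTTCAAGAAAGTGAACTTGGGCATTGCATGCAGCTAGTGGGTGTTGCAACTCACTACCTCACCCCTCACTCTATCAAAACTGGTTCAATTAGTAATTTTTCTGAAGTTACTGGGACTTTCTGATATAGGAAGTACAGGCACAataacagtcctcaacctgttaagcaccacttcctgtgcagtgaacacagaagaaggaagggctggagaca
Ms4a4c: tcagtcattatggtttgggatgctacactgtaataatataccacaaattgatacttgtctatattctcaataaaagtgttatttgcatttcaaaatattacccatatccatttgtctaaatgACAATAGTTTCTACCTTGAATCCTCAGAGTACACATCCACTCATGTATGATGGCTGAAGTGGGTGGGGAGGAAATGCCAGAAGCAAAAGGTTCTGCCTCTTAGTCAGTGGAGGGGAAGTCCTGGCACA
Ms4a4b: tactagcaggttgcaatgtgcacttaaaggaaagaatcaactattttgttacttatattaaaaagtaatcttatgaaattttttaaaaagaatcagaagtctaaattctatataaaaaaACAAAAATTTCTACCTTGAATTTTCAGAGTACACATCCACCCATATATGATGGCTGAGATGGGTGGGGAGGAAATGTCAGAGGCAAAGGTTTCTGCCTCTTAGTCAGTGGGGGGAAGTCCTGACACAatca

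In the first pair 152 bases were identical and 18 differed, an identity of 89.4% over the aligned bases, with 12 gap bases. The second pair shared 114 bases and differed at 13, an identity of 89.8%, with 1 gap base. The aligned stretch ended 1 base before the start in Ms4a6c but 70 bases before it in Ms4a6b. GAGGAA, a core of sites for the myeloid factor PU.1, was searched on both strands. It stood in the aligned stretch of Ms4a4b and Ms4a4c and in no other of the 8 member promoters, and 23.3% of all 32851 promoter entries held it. TTGCNNAA, a C/EBP pattern, and GAAANNGAAA, an interferon response pattern, were each in 0 of the 8, against 9.56% and 2.98% of all entries. None of the 3 patterns contains another, and a match describes the window only.

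Of the 8 members with an Aroma row, 5 were lower in BSM and 0 were higher at a limma adjusted p of 0.05. The 5 were Ms4a1, Ms4a4b, Ms4a6b, Ms4a6c and Ms4a8a. Over all Aroma rows 21.6% were called lower and 28.0% higher, and these shares stand beside each Aroma count of called genes from this fit below. At an unadjusted p of 0.05 the member counts were also 5 and 0. The cell types did not overlap in the same 5 members, as in 60.8% of all rows. The median log2 difference of the 8 was -1.24, beside 0.18 over all rows, and 3 members were more than 8-fold lower. In the Expression Console table, which holds 7 members in rows of their own, 5 (Ms4a1, Ms4a3, Ms4a4b, Ms4a6b and Ms4a6c) were lower and 0 higher, where 20.5% of all rows were called lower and 8.38% higher.

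**Figure D1:**
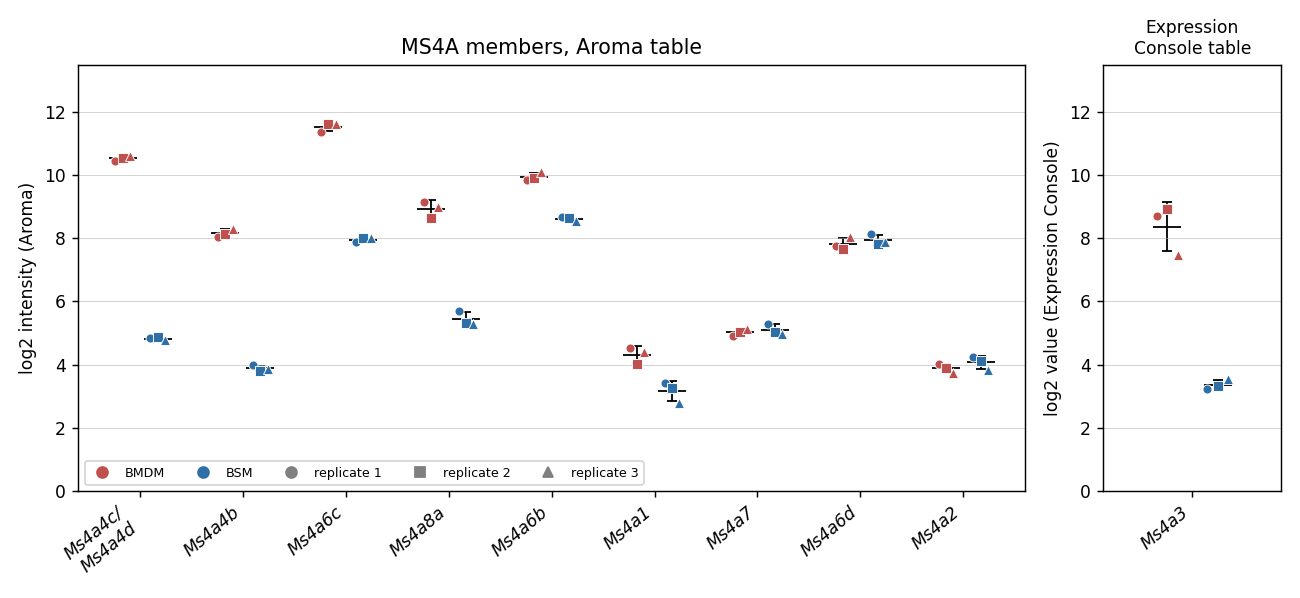
Log2 value of each MS4A member on each array (Aroma intensity at left, Expression Console value of Ms4a3 at right), with BMDM in red and BSM in blue, a symbol for each replicate number, and black bars for the mean and SD of 3 arrays. The joint Ms4a4c/Ms4a4d row, Ms4a4b, Ms4a6c and Ms4a8a stand far apart between the cell types, Ms4a6b and Ms4a1 less so, and Ms4a7, Ms4a6d and Ms4a2 overlap.

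Ms4a4b had the lowest difference of the members with an own Aroma row. Its log2 intensity was 8.04, 8.15 and 8.31 in BMDM replicates 1, 2 and 3, and 3.98, 3.80 and 3.86 in BSM. The lowest BMDM array lay 4.06 above the highest BSM array. The log2 difference was -4.29 (SE 0.11, 95% confidence interval -4.54 to -4.03), which is 19.5-fold (limma adjusted p = 3.1e-08). In the Aroma values only 136 of 21837 rows had a difference as low or lower. The Expression Console difference was -4.22 (SE 0.25), although the BSM arrays there read only 1.42, 1.99 and 1.75. When 16 was added to every intensity before log2, which damps dim values, the difference shrank to -3.30.

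The joint row of Ms4a4c and Ms4a4d fell further. It read 10.45, 10.56 and 10.62 in BMDM and 4.85, 4.86 and 4.77 in BSM. The groups were 5.58 apart at their nearest arrays. The log2 difference was -5.71 (SE 0.10), or 52.5-fold (limma adjusted p = 7.8e-09), and 46 rows of the table were as low or lower. In the Expression Console table the same joint row differed by -6.10 (SE 0.17), and with 16 added to the Aroma intensities the difference was -5.08. A row of Ms4a4d alone differed by -1.94 (SE 0.12) in the Aroma table and -0.93 (SE 0.14) in the other. How much of the joint row each gene gave was not tested.

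Ms4a6c and Ms4a6b are neighbours on the chromosome and gave the promoter alignment with the highest score. The 2 genes differed between the cell types to unlike extents. For Ms4a6c the BMDM arrays read 11.38, 11.62 and 11.61 and the BSM arrays 7.87, 8.02 and 8.0. All BMDM arrays lay at least 3.35 above all BSM arrays. The log2 difference was -3.57 (SE 0.11), an 11.9-fold difference (limma adjusted p = 6.3e-08), with 251 rows as low or lower. Ms4a6b read 9.84, 9.90 and 10.09 in BMDM and 8.69, 8.63 and 8.55 in BSM. Here the gap between the groups was 1.15, and the log2 difference was -1.32 (SE 0.11), or 2.49-fold (limma adjusted p = 1.9e-05). The Expression Console differences were -3.73 (SE 0.12) for Ms4a6c and -1.57 (SE 0.10) for Ms4a6b.

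Ms4a6d, the third gene of this subgroup, did not pass the test. Its values were 7.77, 7.65 and 8.04 in BMDM and 8.14, 7.83 and 7.89 in BSM, so the arrays of the cell types interleaved. The log2 difference was 0.13 (SE 0.14, 95% confidence interval -0.18 to 0.45, limma adjusted p = 0.43), an interval that leaves out a 2-fold change in either direction. In the Expression Console table the interval ran from -0.23 to 0.22.

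These relatives were compared within arrays, as the log2 value of one gene minus that of its paralogue. Only the change of this quantity between the cell types is read, since probes of different genes are not comparable in level. Ms4a6c minus Ms4a6b lay between 1.52 and 1.72 on the BMDM arrays and between -0.82 and -0.55 on the BSM arrays, a change of -2.25. Ms4a6d minus Ms4a6b changed by 1.45, from between -2.25 and -2.04 in BMDM to between -0.80 and -0.55 in BSM. Ms4a6d minus Ms4a6c changed by 3.70. The joint Ms4a4c and Ms4a4d row minus Ms4a4b changed by -1.43, from between 2.30 and 2.41 to between 0.88 and 1.06. On the BSM arrays both of these rows lay below the array medians of 5.61 to 5.70, so an unequal fall and values held up by background cannot be told apart in this pair. In all 4 pairs the 3 arrays of one cell type lay on one side of the other 3. The exact two-sided permutation p was 0.1 for each (0.1 after Benjamini-Hochberg over the 4 pairs), which is the smallest that 3 arrays against 3 can give, so no pair could pass 0.05. Sequence shared by paralogues could let RNA of one gene bind probes of another, and this was not tested.

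Ms4a8a was another member that differed by more than 8-fold. BMDM replicates read 9.16, 8.64 and 9.0, and BSM replicates 5.69, 5.33 and 5.29. No array of one cell type came within 2.95 of the other. The log2 difference was -3.50 (SE 0.17), which is 11.3-fold (limma adjusted p = 7.4e-07), and 261 rows were as low or lower. Ms4a8a has no row in the Expression Console table and so has no check there.

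Ms4a3, the progenitor gene, was read from the Expression Console table. Its log2 value was 8.70, 8.94 and 7.48 in BMDM and 3.24, 3.31 and 3.53 in BSM. BMDM replicate 3 lay more than 1 below the other BMDM arrays, and every BMDM array was at least 3.94 above every BSM array. The log2 difference was -5.01 (SE 0.39, 32.3-fold, limma adjusted p = 0.00038), with 91 of 23332 rows as low or lower. Its BSM values lay below the BSM array medians of 5.40 to 5.45, and values of dim rows hold background. The setting that adds 16 to the intensities was not run on this row. The methods' t-test on linear values gave an adjusted p of 0.075 for it. Of 9 granulocyte-monocyte progenitor markers with an Aroma row, 7 were lower in BSM and 1, Cd34, was higher, with a median log2 difference of -2.27. Among them were the granule enzyme genes Mpo (-7.10, SE 0.22), Prtn3 (-6.01, SE 0.20) and Ctsg (-5.40, SE 0.32) and the progenitor transcription factor Myb (-3.39, SE 0.16). The summed intensity of the 9 was 8495, 7803 and 4579 in BMDM and 1573 to 1824 in BSM. Most of the BSM sum was Cd34, and without it the other 8 summed to 4519 to 8368 in BMDM and 215 to 284 in BSM. With or without Cd34, replicate 3 was the lowest BMDM array in these markers as well as in Ms4a3. Their part in the Ms4a3 difference was not tested.

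Ms4a1 was a dim row in both cell types. It read 4.54, 4.01 and 4.39 in BMDM and 3.43, 3.25 and 2.80 in BSM. The groups were 0.58 apart at their nearest arrays, and the log2 difference was -1.15 (SE 0.19), or 2.23-fold (limma adjusted p = 0.0014). The Expression Console difference was -1.04 (SE 0.18), and with 16 added to the intensities the Aroma difference was -0.52. Of 10 other B cell markers with a row, 3 were lower in BSM: the B cell receptor chain Cd79a (-2.46, SE 0.22), Vpreb3 (-2.09, SE 0.23) and the lineage factor Ebf1 (-0.52, SE 0.14). Another 5 were higher, among them the adaptors Blnk (4.71, SE 0.11) and Bank1 (2.64, SE 0.13). The higher count was 2 with each array centred on its median and 1 in the Expression Console table. The summed intensity of the 10 was 701 to 918 in BMDM and 1941 to 2119 in BSM. Without Blnk and Bank1 the sums overlapped, at 625 to 838 in BMDM and 676 to 751 in BSM. The part of B cells in the Ms4a1 difference was not tested.

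Ms4a2 and Ms4a7 did not pass the test, and their readings were close between the cell types. Both rows were dim and lay below the array median on every array. Since values of dim rows hold background, close readings here do not show that the cell types express these genes alike. Ms4a2 read 4.01, 3.90 and 3.75 in BMDM and 4.25, 4.13 and 3.84 in BSM. These ranges overlapped, with a log2 difference of 0.19 (SE 0.13, 95% confidence interval -0.12 to 0.50, limma adjusted p = 0.27). Fcer1a, the alpha chain of the same IgE receptor, averaged 3.67 ± 0.08 in BMDM and 3.64 ± 0.19 in BSM (log2 intensity, mean ± SD, n = 3). This row was also below the median of every array. Of the 10 mast cell and basophil markers with a row, 3 were lower in BSM, namely the basophil protease genes Mcpt8 and Prss34 and the histamine enzyme gene Hdc, 2 were higher, and their summed intensity was 306 to 436 in BMDM and 236 to 258 in BSM.

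For Ms4a7 the BMDM arrays read 4.91, 5.03 and 5.12 and the BSM arrays 5.30, 5.04 and 4.97. The arrays of both cell types interleaved, and the log2 difference was 0.08 (SE 0.12, 95% confidence interval -0.20 to 0.36, limma adjusted p = 0.59). The Expression Console table holds Ms4a7 only in a row shared with Ms4a14, which differed by -0.09 (SE 0.08). Of 11 border macrophage markers, 5 were higher in BSM and 3 lower, with a summed intensity of 506 to 555 in BMDM and 987 to 1083 in BSM. Without Stab1 the sums overlapped, at 472 to 520 in BMDM and 474 to 520 in BSM. Stab1 (4.05, SE 0.12) and Lyve1 (1.29, SE 0.18) were among the higher ones, Mgl2 (-1.39, SE 0.18), Siglec1 (-0.86, SE 0.18) and Cbr2 (-0.41, SE 0.13) were the lower ones, and Cd163 differed by 0.02 (SE 0.13).

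A further list held genes of the same superfamily outside the members. Of its 12 genes 9 had an Aroma row, of which 4 were higher in BSM and 2 lower, with a median log2 difference of 0.42. Ms4a4a, whose human counterpart marks macrophages, read 8.01, 8.13 and 8.43 in BMDM and 3.96, 4.03 and 3.26 in BSM. That is a log2 difference of -4.44 (SE 0.21, 21.7-fold, limma adjusted p = 7.9e-07), and Ms4a4d was the other lower gene. Tmem176a and Tmem176b, related genes of dendritic cells and macrophages that lie outside the Ms4a cluster, went the other way. Tmem176a rose from 7.37 ± 0.02 to 9.60 ± 0.07 in log2 intensity (mean ± SD over 3 arrays), 4.70-fold higher. Tmem176b rose from 8.73 ± 0.07 to 11.33 ± 0.27, 6.06-fold higher (limma adjusted p = 3.6e-07 and 1.8e-06). Ms4a14 (0.45, SE 0.11) and Ms4a15 (0.46, SE 0.11) were called higher, but with median centring their differences were 0.26 and 0.27, with adjusted p = 0.13 and 0.067. Ms4a5, Ms4a10 and Ms4a13 did not pass, with log2 differences of 0.08, 0.42 and 0.11.

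**Figure D2:**
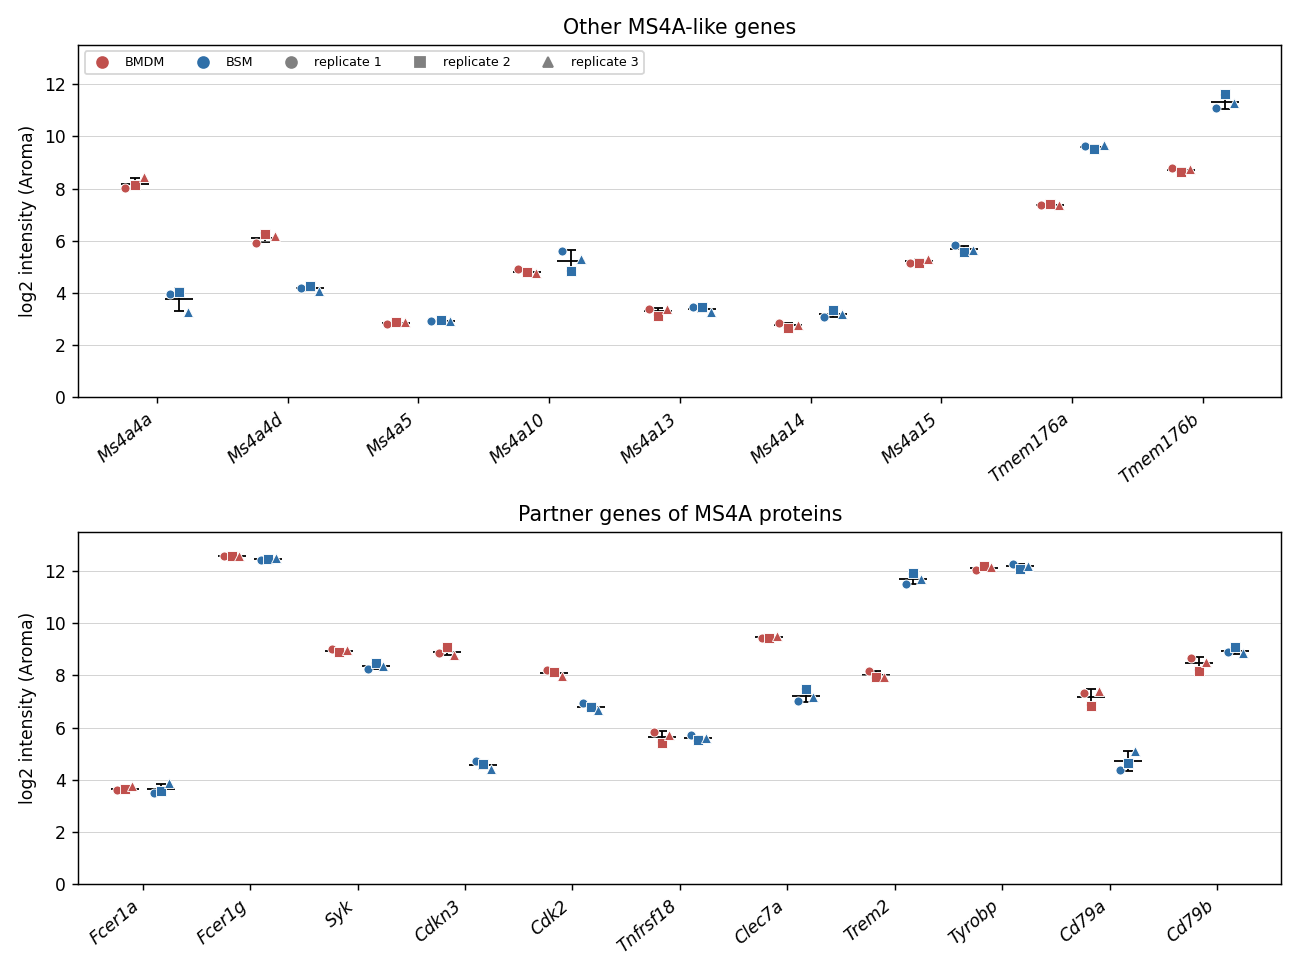
Log2 Aroma intensity on each array for the other MS4A-like genes (top) and for genes whose products work with MS4A proteins (bottom), with BMDM in red, BSM in blue, and black bars for the mean and SD of 3 arrays. Ms4a4a and Cdkn3 are at least 20-fold lower in BSM, and Trem2, Tmem176a and Tmem176b are higher there on every array.

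Along the chromosome, 17 of the 21 Ms4a genes had an Aroma row of their own. Of these, 7 were lower in BSM and 2, Ms4a14 and Ms4a15, were higher, beside 21.6% and 28.0% of all rows. Neither Ms4a14 nor Ms4a15 was called with median centring. RefSeq order places Ms4a4a, Ms4a4c, Ms4a4b, Ms4a6c, Ms4a6b and Ms4a4d next to one another, and each of the 5 with an own row was lower, as was the joint row. The genes that follow in that order, Ms4a6d and Ms4a2, did not pass. The last gene, Ms4a3, has no Aroma row and was lower in the Expression Console table (-5.01). Ms4a8a and Ms4a1 were lower at places apart from this run, with genes between them that did not pass, Ms4a20, Ms4a19 and Ms4a13. Ms4a19 (log2 difference -0.27, but called lower at -0.45 with median centring and with quantile normalization again) and Ms4a20 (0.12) were on no list and are named for their place in the cluster.

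Of the 10 protein-coding neighbours, 5 on each side, 3 were lower in BSM and 2 higher, near the 21.6% and 28.0% of all rows. Tmem109, a membrane protein gene, differed by -0.74 (SE 0.15), the splicing factor gene Prpf19 by -0.41 (SE 0.11), and the mitochondrial ribosome gene Mrpl16 by -0.40 (SE 0.12). Ptgdr2, a prostaglandin D2 receptor gene, differed by 0.35 (SE 0.13) and Cblif by 0.29 (SE 0.10), and neither was called with median centring (0.16 and 0.10). With quantile normalization again Tmem109 alone was called (-0.51). Zp1, Ccdc86, Oosp1, Oosp2 and Oosp3 did not pass, with log2 differences between -0.13 and 0.31. No neighbour reached the size of any of the 5 members that were called.

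**Figure D3:**
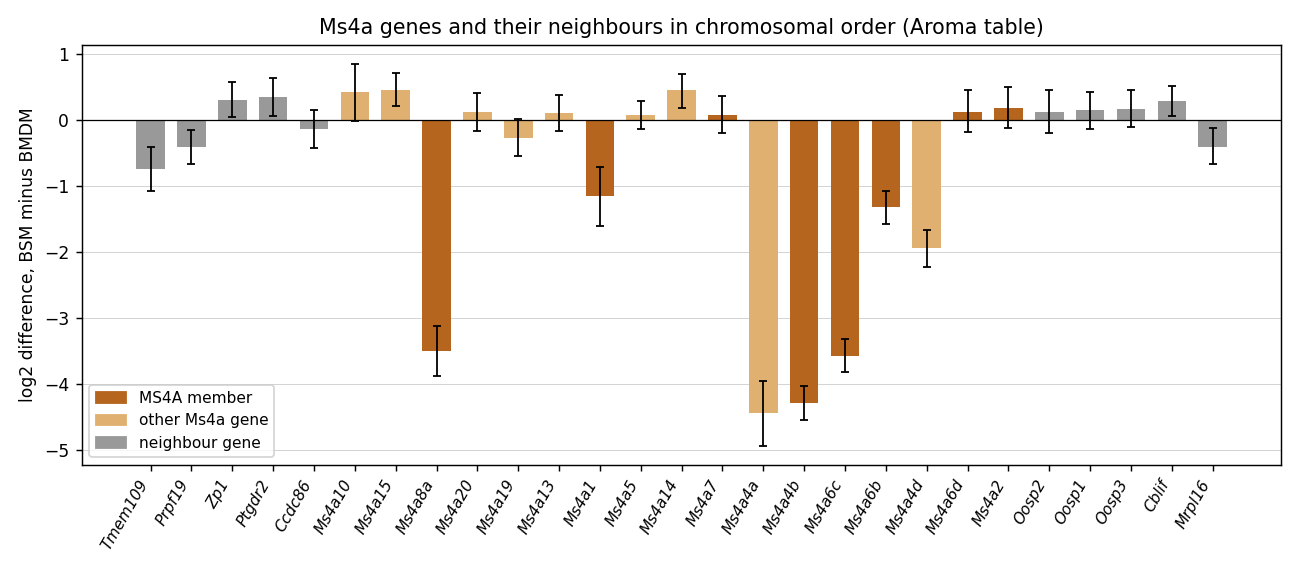
Log2 difference (BSM minus BMDM, Aroma table) of 17 Ms4a genes and 10 neighbour genes in RefSeq order along chromosome 19, with 95% confidence intervals and spacing not to scale. All bars from Ms4a4a to Ms4a4d lie below 0, from -1.32 to -4.44, but Ms4a4c, which lies among them, has no row of its own and no bar. Of the called Ms4a genes elsewhere, Ms4a8a and Ms4a1 lie below 0.

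Genes whose products work with MS4A proteins were also read. Of 11 with an Aroma row, 5 were lower in BSM and 2 higher, beside 21.6% and 28.0% of all rows. Their median log2 difference was -0.12. Cdkn3, the phosphatase that human MS4A3 binds, read 8.87, 9.08 and 8.80 in BMDM and 4.72, 4.59 and 4.42 in BSM. This is a log2 difference of -4.33 (SE 0.12, 20.2-fold, limma adjusted p = 4.6e-08), and its substrate gene Cdk2 differed by -1.29 (SE 0.12). Both belong to the cell cycle machinery.

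Clec7a, which encodes the beta-glucan receptor Dectin-1, a partner of human MS4A4A, averaged 9.46 ± 0.04 in BMDM and 7.23 ± 0.23 in BSM, a 4.70-fold difference (limma adjusted p = 2.6e-06). Trem2, whose soluble form is tied to the human MS4A locus, averaged 8.03 ± 0.14 in BMDM and 11.70 ± 0.20 in BSM, 12.8-fold higher (limma adjusted p = 1.4e-07). Its adaptor Tyrobp differed by 0.05 (SE 0.10), and was called higher with quantile normalization again (0.41). The signalling partners of the IgE receptor were unequal. Syk differed by -0.59 (SE 0.10), whereas the gamma chain gene Fcer1g differed by -0.12 (SE 0.09) and was called lower with median centring (-0.31) but higher with quantile normalization again (0.24). Tnfrsf18, which encodes GITR, a partner of the Ms4a4b product, differed by -0.06 (SE 0.13). Of the B cell receptor chains, Cd79a was lower and Cd79b was called higher (0.48, SE 0.15), a call absent with median centring (0.29) and in the Expression Console table (0.06).

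The genes most like a member over the 6 arrays were named by the root mean square distance of their centred log2 values. A small distance requires a like difference between the cell types, so the ranges of differences given here follow from the choice. For Ms4a4b, the called member with the lowest difference, they were the transcription factor gene Nfe2 (distance 0.080), Mcub (0.088), the adhesion receptor gene Cd44 (0.088), the condensin gene Smc4 (0.096) and Arhgef37 (0.109). Their own log2 differences ran from -4.41 to -4.19. For Ms4a1, the called member nearest to 0, they were Cd300lf (0.096), Vnn3 (0.149), the interferon-induced nuclease gene Isg20 (0.154), the complement factor B gene Cfb (0.155) and the acute phase gene Saa3 (0.158), with differences from -1.28 to -1.06.

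All 11 microglia markers with a row were higher in BSM and all 10 monocyte markers lower, beside 28.0% and 21.6% of all rows. These lists were chosen with earlier results of these data known, so the counts are no test of the sorts. Markers of other cells moved with the cell types too. All 11 neutrophil markers were lower in BSM, although both sorts excluded Ly6G+ cells. Their summed intensity was 9405 to 11484 in BMDM and 260 to 359 in BSM. Most of the BMDM sum came from S100a8 and S100a9, whose log2 intensity averaged 11.96 and 11.76 there. Ly6g itself read 3.90, 4.82 and 5.79 in BMDM and 3.52, 3.55 and 3.52 in BSM. Whether neutrophils were present in the BMDM pools was not tested. Of 9 dendritic cell markers 4 were higher and 4 lower, and of 12 T and NK cell markers 3 were higher and 2 lower, Cd3d (-0.96, SE 0.22) and Nkg7 (-3.76, SE 0.28). With median centring, as in the Expression Console table, the higher counts were 1 and 0. The T and NK cell sum was 638 to 1069 in BMDM and 480 to 533 in BSM, but without Nkg7 it was 357 to 406 in BMDM and 445 to 499 in BSM. The part of these cells in the member differences was not tested.

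A term for sex by cell type was fitted because replicate 1 of each type was the female pool, although sex cannot be told apart from anything else particular to that pool. It passed for 0 of 21837 Aroma rows and 0 of 23332 Expression Console rows, and for the members 0 of 8 and 0 of 7 had an unadjusted p under 0.05. With 1 female array per cell type the power of this term is low. In the male pools alone the differences of the 5 called members lay between -4.40 and -1.18, and all 5 were called.

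**Figure D4:**
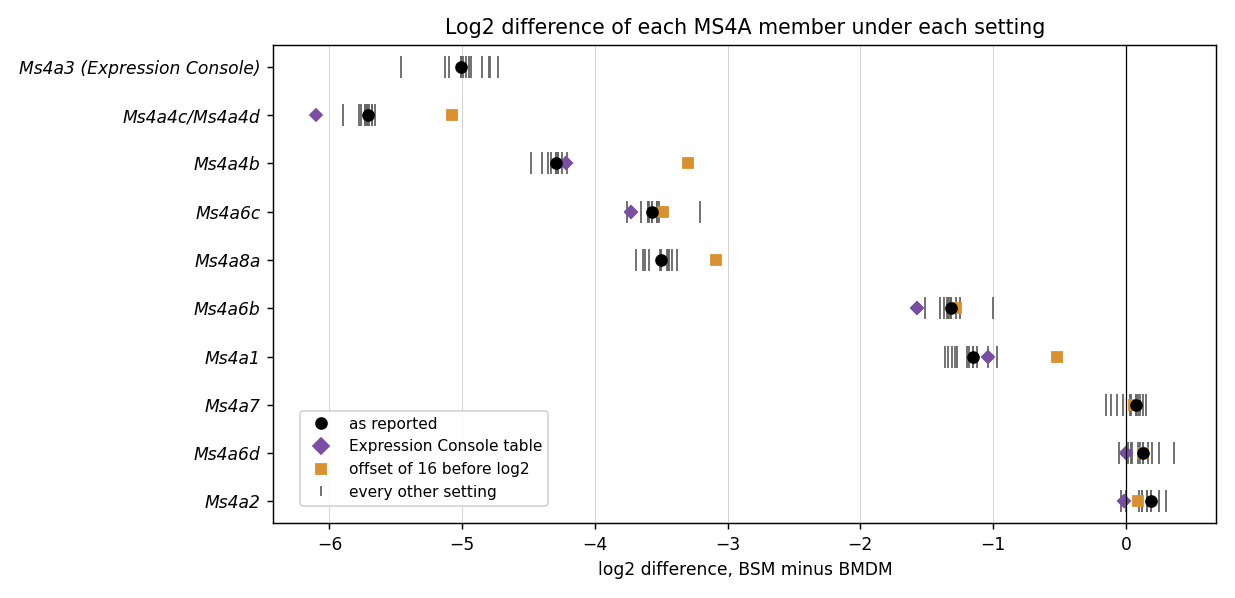
Log2 difference (BSM minus BMDM) of each MS4A member as reported (black circle), in the Expression Console table (purple diamond), with 16 added to the intensities (orange square) and under every other setting (grey tick). Every value of the 5 called members, the joint row and Ms4a3 lies below 0, and the values of Ms4a7, Ms4a6d and Ms4a2 spread over both sides of 0, between -0.15 and 0.36.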

How the data were processed

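Gene expression was measured on 6 Affymetrix Mouse Exon 1.0 ST arrays, 3 BMDM and 3 BSM, deposited as 12 samples because each array was summarised by 2 programs. The 2 tables were never pooled. The authors made the Aroma intensity values by RMA background correction, then quantile normalization, then a probe-level model that is additive on the log scale. The authors deposited log2 values of the second table from RMA in Affymetrix Expression Console (build mm9). RNA was amplified from small amounts before hybridization.

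Aroma intensities were taken to log2. BSM minus BMDM was fitted in limma 3.58.1 under R 4.3.3 (lmFit, eBayes), with Benjamini-Hochberg adjustment over all 21837 rows (23332 in the Expression Console table), at a threshold of 0.05. The same fit was also run on simulated data with known changes in some rows. A gene with several rows was represented by the row with the highest mean. Rows named for several genes (763 and 1019) were not given to a single gene. Symbols were updated through RefSeq names (2858 and 27 rows). The paralogue contrasts used exact permutation tests. Promoters were aligned with Biopython 1.88 (local, match 2, mismatch -3, gap opening -5, extension -2). The number of arrays limits the precision. A limma p-value sets the cell type difference against the spread between these pools, moderated over all rows.

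Named were the members, relatives, partners and neighbours with a row, the 5 genes most like the called members of lowest and highest difference, and list markers. Members and lists were chosen with earlier results of these data known. Settings for Ms4a3 and the joint row, the term for sex, and marker sums without their leading genes were added after seeing the data.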

Additional observations from a re-analysis of the deposited data

How the results depend on the processing

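Each member was refitted under up to 19 alternatives. Every member kept its side of the threshold, and the called members their direction, with 1 exception. Ms4a3 was not called by the t-test on linear Expression Console values (log2 ratio -5.13, adjusted p = 0.075). The count of members called stayed at 5 lower and 0 higher under the replicate block, and no call of a member changed under it. Arrays with the same replicate number did not deviate together (correlations of 0.0649, 0.00214 and 0.0112 in the Aroma table). This cannot show whether same-numbered pools were matched, and replicate 1 of each cell type shares its female label. The lower count was 5 under every other alternative except the filter that kept rows from the median mean upwards, where it was 4 because Ms4a1 lies under that minimum. In the Expression Console table the 5 were another set, with Ms4a3 and without Ms4a8a, which has no row there.

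Leaving out each array in turn, Ms4a4b ranged from -4.35 to -4.21, Ms4a6c from -3.65 to -3.52, Ms4a8a from -3.64 to -3.38, Ms4a6b from -1.37 to -1.25, Ms4a1 from -1.31 to -0.97 and Ms4a3 from -5.46 to -4.73. The paralogue contrasts ranged from -2.31 to -2.17 (Ms4a6c minus Ms4a6b), 1.39 to 1.52 (Ms4a6d minus Ms4a6b), 3.56 to 3.79 (Ms4a6d minus Ms4a6c) and -1.49 to -1.39 (the joint row minus Ms4a4b). Of the other MS4A-like genes 2 were called higher with median centring and 2 in the Expression Console table, where 1 was called lower and fewer of the genes had a row. Median centring moved the median of all rows from 0.18 to -0.01. Partner genes called higher went from 2 to 1, 4 and 1 with median centring, quantile normalization again and the Expression Console table. Marker lists lost calls in the higher direction: in the order median centring, quantile normalization again and Expression Console, the count went from 5 to 2, 3 and 1 for B cells, from 4 to 1, 2 and 1 for dendritic cells, from 3 to 0, 1 and 0 for T and NK cells, from 2 to 1, 1 and 1 for mast cells and basophils, from 5 to 3, 4 and 3 for border macrophages and from 2 to 0, 0 and 0 for neighbours. Neighbours called lower went from 3 to 1 with quantile normalization again. Equal values on several arrays stood in 15.8% of the Expression Console rows and 0.0229% of the Aroma rows.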
